A study of Mus musculus with 72 samples.

Results

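LAM-HTGTS, a sequencing assay that reads the genomic ends joined to 1 chosen break, was analysed in 4 libraries with a Cas9 break on chromosome 12 as the bait, 2 from cells given aphidicolin and 2 from cells given the vehicle DMSO. They were taken by their labels as all the chr12 bait libraries of the inhibitor collection without the Pol theta inhibitor ART558, and are 4 of 60 junction libraries among the 72 samples of the series. All 4 came from neural progenitor cells derived from mouse embryonic stem cells of 1 parental line, Nxp010, with the genotype NestinCre+Xrcc4-/-p53-/-, so that the DMSO cells lacked Xrcc4 and p53 as well. The aphidicolin cells had 0.5 uM for 72 hours and then 0.25 uM for 24 hours. The labels do not say whether replicates were separate cultures. The paper's reporting summary describes repeats for these baits as technical, while a figure legend counts independent biological replicates. A p-value therefore measures only the spread between these libraries, which may be technical. Junction files hold no expression, and the labelled cell type could not be set against marker genes.

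Aphidicolin inhibits the replicative DNA polymerases and slows forks. Xrcc4 holds DNA ligase IV at broken ends, and without it end joining runs through alternative routes that often use micro-homology, a few bases shared by both ends. Recurrent DNA break clusters (RDCs) are regions, mostly inside long neural genes, in which breaks gather under replication stress. In this assay a primer beside the bait break reads across the joint into its partner, called the prey.

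The guide and the bait end are shown because the junction classes and bait ends are counted from that cut. The guide lies on the plus strand of GRCm38/mm10 at chr12:12994038-12994057, within an exon of *Gm35208*, a lincRNA gene. The nearest protein-coding gene, *Mycn*, is 52140 bp away. Capitals mark the PAM in the first line and the primer in the second. The bait spans chr12:12993923-12994054, and its last base is the last one before the cut, so that an intact end leaves a bait of 132 bp.
guide and PAM: attccgccaaccctcgagatAGG
bait: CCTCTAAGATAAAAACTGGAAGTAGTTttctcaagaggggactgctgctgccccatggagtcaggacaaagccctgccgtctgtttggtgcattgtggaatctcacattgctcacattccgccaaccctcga

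The DMSO libraries held 17288 and 37027 junctions and the aphidicolin libraries 15012 and 15275. On chromosomes other than 12 there were 3251 and 5476 junctions in DMSO and 5837 and 6146 in aphidicolin. The libraries stood apart in a pair of ways. First occurrences of a junction made up 97.4% and 97.8% of other-chromosome junctions in DMSO but 81.0% and 90.5% in aphidicolin. In addition, 4 repeat-like bins of 100 kb held 6.40% and 2.17% of other-chromosome junctions in DMSO and 3.07% and 9.21% in aphidicolin. All 4 libraries came from 1 sequencing run, and no pair of them shared more than 51 other-chromosome junctions. Shares are of the junctions placed on chromosomes 1 to 19, X and Y. With 2 libraries against 2, a two-sided exact permutation test has 6 arrangements and no p below 0.333, so this test cannot reach 0.05 here. With all 4 libraries, 0.333 is the exact permutation p wherever both libraries of a group lie above both of the other.

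Aphidicolin libraries joined the chr12 break to other chromosomes more often and to the sequence just past the cut less often. Other chromosomes took 18.9% and 14.8% of junctions in DMSO and 39.0% and 40.6% in aphidicolin. Both aphidicolin libraries were thus above both DMSO libraries. The group means were 16.8 ± 2.88% (SD, n = 2) and 39.8 ± 1.16% (n = 2), a ratio of 2.36. Wilson 95% intervals, which cover counting error only, ran from 18.3% to 19.5% in the first DMSO library. Deletions of 200 bp to 10 kb, in which the bait was joined to sequence past the cut in the same direction, were the largest class in DMSO at 44.6% and 48.4%. In aphidicolin they made up 24.0% and 21.8%, which was 23.6 percentage points lower. Deletions under 200 bp went the same way, with 13.7% and 12.03% in DMSO against 8.92% and 9.18% in aphidicolin. Inverted junctions within 10 kb past the break took 6.93% and 8.07% in DMSO and 3.71% and 4.24% in aphidicolin.

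Not every class near the break was smaller. Junctions within 1 Mb on the bait side of the break took 12.8% and 13.4% in DMSO and 18.0% and 17.8% in aphidicolin. Most of them were inverted, 9.96% and 10.1% of all junctions in DMSO and 14.7% and 14.6% in aphidicolin. They also lay farther out, at a median of 774 and 970 bp from the cut in DMSO and 1948 and 1763 bp in aphidicolin. Junctions on chromosome 12 beyond 1 Mb took 2.26% and 2.03% in DMSO and 4.57% and 4.76% in aphidicolin. Deletions of 10 kb to 1 Mb were rare, at 0.732% and 1.14% in DMSO and 1.402% and 1.22% in aphidicolin. Without either DMSO library this last difference, 0.373 points, ranged from 0.168 to 0.577. Groups did not overlap in any of these 7 classes. Because the classes share 1 total, they do not show how many breaks or joints a cell had.

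**Figure D1:**
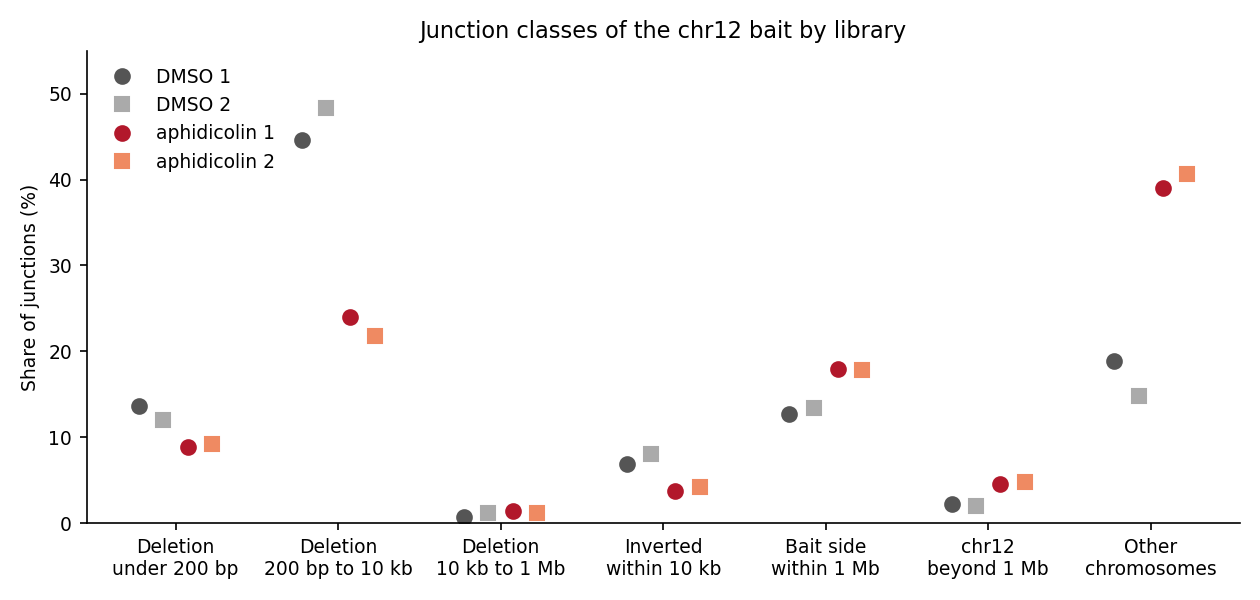
Share of junctions (%) in each of 7 classes, 1 point per library (grey, DMSO; red and orange, aphidicolin). Aphidicolin points lie at 39.0% and 40.6% for other chromosomes, above both DMSO points, and at 24.0% and 21.8% for deletions of 200 bp to 10 kb, below both.

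Taking only junctions within 1 Mb removes the other chromosomes from the total. Deletions of 200 bp to 10 kb then made up 56.5% and 58.2% in DMSO and 42.5% and 39.8% in aphidicolin. Bait-side junctions made up 16.2% and 16.1% in DMSO and 31.9% and 32.6% in aphidicolin. The shortest deletions, at 17.3% and 14.5% in DMSO and 15.8% and 16.8% in aphidicolin, overlapped on this total. Deletions of 10 kb to 1 Mb were more frequent, at 0.928% and 1.37% in DMSO and 2.48% and 2.23% in aphidicolin. On this total, deletions of 200 bp to 10 kb were thus the only deletion class with a lower share in both aphidicolin libraries.

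Micro-homology went in opposite directions far from the break and near it. Among junctions more than 1 Mb away or on other chromosomes, with 0 to 10 bp of micro-homology, direct joints without any shared base made up 25.5% and 22.1% in DMSO and 28.1% and 28.7% in aphidicolin. The difference of 4.60 points was 2.90 without the second DMSO library and 1.71 over all junctions, near ones included. Joints with 2 to 4 bp made up 42.7% and 47.7% in DMSO and 41.2% and 39.4% in aphidicolin. That difference of -4.91 points ranged from -7.41 to -2.41 when a DMSO library was left out, and was -0.854 over all junctions. Within the range, 3 and 4 bp did not overlap between groups and 2 bp did. At 3 bp the shares were 16.4% and 16.3% in DMSO and 13.9% and 13.7% in aphidicolin. Mean micro-homology was 2.42 bp in both DMSO libraries and 2.21 and 2.19 bp in aphidicolin. Joints with 5 to 10 bp overlapped, at 15.3% and 14.1% in DMSO and 13.4% and 14.2% in aphidicolin (exact permutation p = 0.667). Insertions overlapped as well, at 11.5% and 12.3% in DMSO and 9.95% and 11.8% in aphidicolin (exact permutation p = 0.667). With 1 library left out, the difference ranged from -1.96 to -0.098 points for insertions and from -1.52 to -0.28 for 5 to 10 bp. Without the 4 repeat-like bins the difference in insertions was -1.64 points in place of -1.03, with no overlap. With each junction counted once it was -0.447, with overlap (exact permutation p = 0.667), and over all junctions it was -8.81.

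In deletions of 200 bp to 10 kb, direct joints were instead less frequent with aphidicolin. They made up 12.02% and 15.8% in DMSO and 8.44% and 7.31% in aphidicolin. The most frequent length there was 2 bp in all 4 libraries, at 30.9% to 34.7%. The lengths from 3 to 8 bp were each more frequent in both aphidicolin libraries. At 3 bp the shares were 18.6% and 16.0% in DMSO and 21.2% and 22.2% in aphidicolin. Mean micro-homology was 2.13 and 1.93 bp in DMSO and 2.42 and 2.48 bp in aphidicolin. The same order held for direct joints and mean micro-homology in deletions under 200 bp, in deletions of 10 kb to 1 Mb, in inverted junctions and on the bait side. In deletions under 200 bp, direct joints made up 18.5% and 24.0% in DMSO and 14.9% and 13.5% in aphidicolin.

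**Figure D2:**
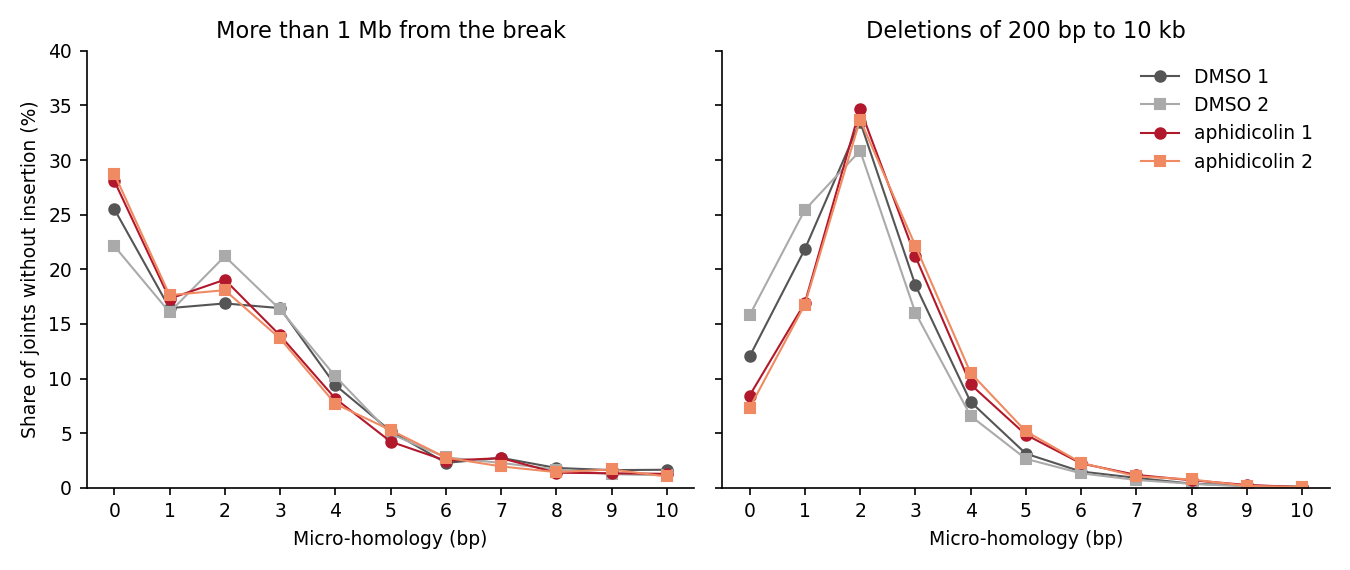
Share of joints without insertion (%) at each micro-homology length from 0 to 10 bp, 1 line per library, for junctions more than 1 Mb from the break (left) and deletions of 200 bp to 10 kb (right). At 0 bp the aphidicolin lines lie at 28.1% and 28.7% on the left, above DMSO, and at 8.44% and 7.31% on the right, below DMSO.

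Insertions, bases at the joint that match neither end, were also less frequent near the break with aphidicolin. In deletions of 200 bp to 10 kb they occurred in 21.2% and 26.0% of junctions in DMSO and 14.9% and 16.2% in aphidicolin. Most were of 1 to 3 bp, found in 13.4% and 16.0% of these deletions in DMSO and 9.27% and 10.5% in aphidicolin. On the bait side insertions occurred in 29.0% and 28.4% of junctions in DMSO and 16.9% and 17.8% in aphidicolin. The groups were thus farther apart there than the 2 libraries of either group.

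A few short deletions at the break show what such a joint looks like. In each line the capitals are the micro-homology, which both ends carried and the joint kept once. The first lost 60 bp between 12994018 and 12994073 of chromosome 12, with the last bait base and the first prey base counted so that both hold the micro-homology.
60 bp deletion: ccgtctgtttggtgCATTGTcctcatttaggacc
45 bp deletion: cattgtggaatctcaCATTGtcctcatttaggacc
30 bp deletion: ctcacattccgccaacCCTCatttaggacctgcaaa
The 60 bp deletion, with 6 bp of micro-homology, was found 3 and 6 times in DMSO and 7 and 4 times in aphidicolin. As a share of deletions under 200 bp this was 0.127% and 0.135% in DMSO and 0.524% and 0.288% in aphidicolin. The authors' pipeline removes part of the repeated reads, so that joints that recur close to the break may be undercounted in every library.

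Bait ends of far junctions were shorter with aphidicolin. Mean bait length was 88.9 and 92.5 bp in DMSO and 84.5 and 84.9 bp in aphidicolin, with group means of 90.7 ± 2.57 (SD, n = 2) and 84.7 ± 0.292 bp (n = 2). Ends within 4 bp of the cut made up 11.1% and 15.4% in DMSO and 7.04% and 6.93% in aphidicolin. The difference of -6.27 points was -4.11 without the second DMSO library and -10.4 over all junctions. Ends that had lost over 50 bp made up 42.0% and 37.8% in DMSO and 47.0% and 46.1% in aphidicolin. Junctions with insertions had a mean loss of 32.9 and 28.3 bp in DMSO and 41.1 and 41.0 bp in aphidicolin. Direct joints had the largest mean loss of the 5 kinds of joint in every library, 53.1 and 52.4 bp in DMSO and 55.2 and 54.6 bp in aphidicolin. By median, joints with 5 to 10 bp of micro-homology had lost more in the first DMSO and the second aphidicolin library. Among ends that had lost 5 to 50 bp, direct joints made up 22.5% and 18.4% in DMSO and 26.1% and 27.0% in aphidicolin. Among ends that had lost more, direct joints overlapped between groups, at 31.2% and 30.4% in DMSO and 31.1% and 32.0% in aphidicolin.

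The shortest recorded bait was 37 bp, a loss of 95 bp. Since reads start with the primer of 27 bp, larger losses could go unseen in every mean or share of loss. The losses were not spread evenly along the bait, and 6 ends recurred. They are shown with the last 12 kept bases in capitals and the next 8 bases of the uncut genome in lower case. The first 4 lie far from the cut, and the last 2 lie beside it.
93 bp lost: TTCTCAAGAGGGgactgctg
70 bp lost: CCCCATGGAGTCaggacaaa
60 bp lost: TCAGGACAAAGCcctgccgt
43 bp lost: CGTCTGTTTGGTgcattgtg
3 bp lost: TCCGCCAACCCTcgagatag
2 bp lost: CCGCCAACCCTCgagatagg
The end that had lost 93 bp took 3.90% and 4.61% of far junctions in DMSO and 5.60% and 5.48% in aphidicolin. Of its joints with 0 to 10 bp of micro-homology, 74.8% and 65.3% were direct in DMSO and 67.6% and 64.8% in aphidicolin. The end that had lost 2 bp took 3.85% and 4.77% in DMSO and 2.02% and 2.18% in aphidicolin. Its joints were direct in 8.47% and 4.64% in DMSO and 7.84% and 12.6% in aphidicolin. Together the 4 distant ends took 14.8% and 13.3% in DMSO and 17.3% and 18.1% in aphidicolin. Among them only the end that had lost 70 bp overlapped, at 2.94% and 1.77% in DMSO and 2.47% and 2.90% in aphidicolin. The 2 ends beside the cut together took 6.32% and 8.62% in DMSO and 3.88% and 3.801% in aphidicolin. The 4 distant ends were rare in deletions of 200 bp to 10 kb, at 1.26% and 1.11% in DMSO and 0.919% and 1.34% in aphidicolin. The recurrent ends were picked for their frequency in these libraries, and their part in the shift of bait length was not tested.

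Bait ends of deletions under 200 bp gave no single direction. They had a mean loss of 31.1 and 31.4 bp in DMSO and 30.5 bp in both aphidicolin libraries. The median loss was 19 and 20 bp in DMSO and 22 bp in both aphidicolin libraries. Ends within 4 bp of the cut made up 19.4% and 18.4% in DMSO and 14.9% and 16.3% in aphidicolin. At the other extreme, 27.7% and 27.8% had lost over 50 bp in DMSO and 23.3% and 23.4% in aphidicolin. In deletions of 200 bp to 10 kb the mean bait length was 114 and 113 bp in DMSO and 113 bp in both aphidicolin libraries, and the groups overlapped. Ends within 4 bp of the cut were nonetheless less frequent there with aphidicolin, at 27.4% and 26.9% in DMSO and 21.3% and 21.5% in aphidicolin. On the bait side the same share was 26.8% and 27.6% in DMSO and 13.1% and 12.6% in aphidicolin.

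RDCs were taken from the source data of the study, which lists 107 with a position and a class. Of these, 42 lie in constant timing regions that replicate late (CTR), and 65 in timing transition regions (TTR), where replication timing changes along the chromosome. The listed RDCs were defined in cells under replication stress, so a higher density in aphidicolin is not independent evidence for the list. Windows of 1 Mb were centred on them, and 39 CTR and 64 TTR windows lie off chromosome 12. Density was counted as junctions per 1000 other-chromosome junctions per Mb. Over the CTR RDCs it was 0.371 and 0.347 in DMSO and 1.07 and 0.926 in aphidicolin, with means of 0.359 ± 0.0171 (SD, n = 2) and 0.999 ± 0.103 (n = 2), a ratio of 2.79. Over the TTR RDCs it was 0.495 and 0.437 in DMSO and 0.795 and 0.686 in aphidicolin, a ratio of 1.59. Outside RDCs it was 0.383 and 0.382 in DMSO and 0.362 and 0.367 in aphidicolin. Groups did not overlap in any of the 3. With only the junctions outside RDC windows as the total, however, the difference outside was -0.0012 in place of -0.0182 (exact permutation p = 1). CTR density relative to the density outside was at -0.05 and -0.14 on the log2 scale in DMSO and 1.57 and 1.34 in aphidicolin. TTR density on the same scale was at 0.37 and 0.19 in DMSO and 1.14 and 0.90 in aphidicolin.

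Both values moved with the window and the total. In windows of 2 Mb the difference was 0.356 at CTR and 0.142 at TTR RDCs, against 0.640 and 0.275 in 1 Mb. In windows of 0.5 Mb the TTR difference was 0.436. With all junctions as the total, the CTR difference was 0.336, and the difference outside RDCs was 0.0806 in place of -0.0182. On that total the larger share of other-chromosome junctions in aphidicolin enters every density.

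By single window, both aphidicolin libraries were above both DMSO libraries at 25 of 39 CTR RDCs and 24 of 64 TTR RDCs. They were below both at 0 CTR and 4 TTR RDCs. Of 2403 tiles of 1 Mb that touch no RDC, 12.4% were above and 16.8% below. The junctions in a window were few, between 3 and 49 over the 4 libraries with a median of 12. The median difference was 0.567 over CTR and 0.248 over TTR windows, beside -0.0024 over tiles. The limma fit with voom weights tested 725 windows with at least 10 junctions, 77 of them RDCs, and called 0, or 0% (lowest adjusted p 0.824). At an unadjusted p under 0.05 it held 11 higher and 5 lower windows. Limma-trend called 2 higher windows, or 0.276%, *Magi2* and *Naaladl2*. Fisher's exact test on summed junctions, which leaves out the spread between libraries, called 6 higher windows, or 0.828%, and 2 lower ones, or 0.276%. The higher ones were *Naaladl2*, *Magi2*, *Auts2* and 3 tiles that hold repeat-like bins. The lower ones were a tile on chromosome 11 with 11 DMSO and 0 aphidicolin junctions and a tile on chromosome 4 with 10 and 0.

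Among RDC windows the largest difference was at *Auts2*, a TTR RDC in the gene of a chromatin regulator of neural development (chr5:131400001-132400000). It held 4 and 4 junctions in DMSO and 20 and 21 in aphidicolin, and 34 of the last 41 were distinct. Density went from 0.980 ± 0.354 (SD, n = 2) to 3.42 ± 0.0068 (n = 2), with a limma log2 fold change of 1.82 ± 0.67 (SE, adjusted p = 0.824). None of the 30 joints with 0 to 10 bp of micro-homology there was direct in aphidicolin, against 2 of 8 in DMSO. *Magi2*, a synaptic scaffold gene (chr5:19500001-20500000, CTR), held 1 and 3 junctions in DMSO and 15 and 15 in aphidicolin. Its log2 fold change was 2.08 ± 0.83 (SE, limma adjusted p = 0.824). *Naaladl2*, which encodes a peptidase-like protein (chr3:24100001-25100000, CTR), held 0 and 2 junctions in DMSO and 12 and 14 in aphidicolin. These 3 windows showed no overlap and 23 to 34 distinct junctions in aphidicolin.

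Further down came *Fhod3*, a formin gene, with 1 and 4 junctions in DMSO and 13 and 13 in aphidicolin. *Nrg3*, which encodes a neuregulin ligand of the receptor ErbB4, held 2 and 5 in DMSO and 16 and 11 in aphidicolin. The receptor gene *Erbb4*, with a smaller difference of 0.82 and outside the 10 largest, held 0 and 2 in DMSO and 6 and 6 in aphidicolin. *Csmd1* held 2 and 0 in DMSO and 10 and 11 in aphidicolin. *Prkg1*, a cGMP-dependent kinase gene, held 1 and 4 in DMSO and 13 and 8 in aphidicolin. Among the 10 largest non-overlapping differences were also *Ccser1*, with 1 and 1 against 6 and 10, and the protocadherin gene *Pcdh9*, with 0 and 1 against 8 and 5. The 10 largest non-overlapping differences lay between 1.001 and 2.44 junctions per 1000 per Mb, and 8 of them were CTR RDCs.

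The named genes with copy number variants include *Magi2* and *Nrg3* above. *Cadm2*, a synaptic adhesion gene, held 0 and 2 junctions in DMSO and 6 and 8 in aphidicolin. *Lrp1b*, a lipoprotein receptor gene, held 0 and 1 in DMSO and 7 and 2 in aphidicolin. *Ctnna2*, the neural alpha-catenin, overlapped, with 0 and 10 in DMSO and 8 and 14 in aphidicolin. At the other end, *Prkce*, a protein kinase C gene, held 5 and 4 junctions in DMSO and 1 and 3 in aphidicolin. Density there was 1.13 ± 0.571 (SD, n = 2) and 0.330 ± 0.224 (n = 2), the lowest difference of the 103 windows. The next lowest were *Dock1*, *Nbea*, *Adgrb3* and *Csmd3*, with differences from -0.40 to -0.38 and 4 to 13 junctions each over the 4 libraries.

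By gene group, both aphidicolin libraries were above at 5 of 5 windows of genes known from common fragile sites (*Ccser1*, *Lrp1b*, *Naaladl2*, *Park2* and *Wwox*), from a median density of 0.183 in DMSO to 1.08 in aphidicolin. The count depends on that list. Among other genes that the paper names as classical fragility hotspots, *Ctnna2* and *Sox5* overlapped between groups, and *Magi2* and *Il1rapl1* did not. Both aphidicolin libraries were above at both neuregulin signalling windows, at 4 of 7 of cadherins and catenins, at 4 of 6 of the dystrophin complex, such as *Dmd* and *Utrn*, and at 4 of 7 of transcription factors. The receptor tyrosine phosphatases had 3 of 5, and immunoglobulin adhesion and guidance genes had 3 of 5. Adhesion GPCRs had 1 of 4, the CSMD family 1 of 3, and synaptic and polarity scaffolds 1 of 7 with 1 below. Over all RDCs the share was 47.6%, with 64.1% over CTR and 37.5% over TTR windows. The groups differ in class. Fragile site windows were 4 CTR and 1 TTR, both neuregulin windows were CTR, and the phosphatases were 5 TTR. Scaffolds were 1 CTR and 6 TTR, so gene group and class are not told apart by these counts. On chromosome 12 itself, *Immp2l*, a mitochondrial protease gene, held 2 and 3 junctions in DMSO and 27 and 30 in aphidicolin. *Hdac9*, a histone deacetylase gene, held 6 and 6 in DMSO and 30 and 20 in aphidicolin. Counts at *Mdga2* were 6 and 6 against 11 and 11, and at *Klhl29* 6 and 10 against 14 and 13. Per 1000 chromosome 12 junctions beyond 1 Mb, *Mdga2* overlapped between groups and the other 3 did not.

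At CTR RDCs the bait end was the reverse of the genome-wide pattern. Mean bait length there was 85.7 and 84.2 bp in DMSO and 101 and 102 bp in aphidicolin. Outside RDCs on the other chromosomes it was 87.4 and 90.9 bp in DMSO and 82.1 and 82.4 bp in aphidicolin. The CTR value minus the value outside was -1.67 and -6.72 bp in DMSO and 18.8 and 19.95 bp in aphidicolin. Ends within 4 bp of the cut made up 10.6% and 13.5% of CTR junctions in DMSO and 20.5% and 21.2% in aphidicolin. Outside RDCs they made up 10.0% and 14.1% in DMSO and 5.51% and 5.59% in aphidicolin. At TTR RDCs bait length overlapped between groups, at 95.6 and 94.6 bp in DMSO and 93.8 and 96.9 bp in aphidicolin. The TTR value minus the value outside did not overlap, at 8.26 and 3.68 bp in DMSO and 11.7 and 14.5 bp in aphidicolin. Of the RDCs with at least 5 aphidicolin junctions, 31 of 35 CTR and 41 of 52 TTR windows had a mean bait length above the 82.2 bp found outside in those libraries. This count has no DMSO counterpart here, so it does not show a change with aphidicolin. The same count was not made over single tiles outside RDCs, so it does not set RDC windows apart from other windows either. At *Auts2* the mean bait length over the aphidicolin junctions was 113 bp. Over all RDCs bait length was 92.5 and 91.2 bp in DMSO and 97.0 and 99.4 bp in aphidicolin, a difference of 6.30 bp that was 9.51 in windows of 0.5 Mb and 2.95 in windows of 2 Mb.

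**Figure D3:**
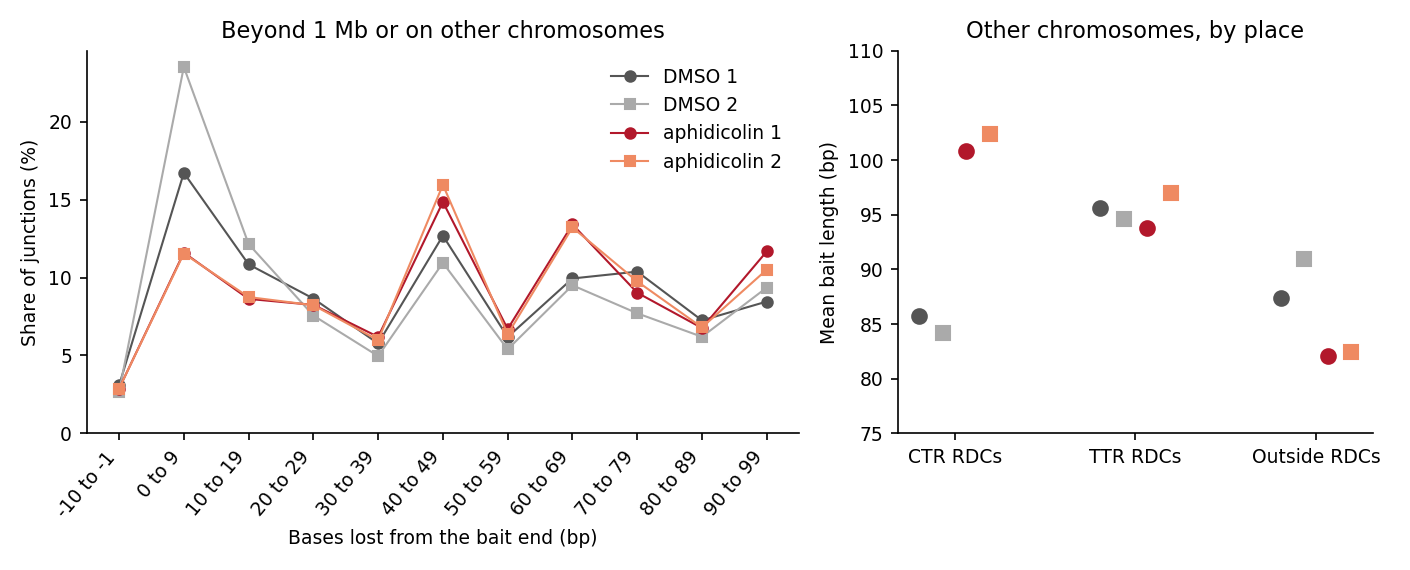
Left, share of far junctions (%) by bases lost from the bait end in steps of 10 bp, 1 line per library; negative losses are ends read past the cut. Right, mean bait length (bp, axis from 75) at CTR RDCs, TTR RDCs and outside RDCs, where aphidicolin points lie at 101 and 102 bp at CTR RDCs and at 82.1 and 82.4 bp outside.

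Direct joints at RDCs gave no order. They made up 16.1% and 22.8% in DMSO and 17.9% and 22.8% in aphidicolin (exact permutation p = 1), and the sign of the difference, 0.885 points, turned without 1 library and in other windows. The shares rest on few joints in DMSO, whose RDC windows held 377 junctions against 1033 in aphidicolin. Outside RDCs direct joints made up 26.7% and 22.98% in DMSO and 30.0% and 30.7% in aphidicolin. The share at CTR RDCs minus that outside differed between treatments by -3.83 points (exact permutation p = 1), and at TTR RDCs by -4.24 points (exact permutation p = 0.667).

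In windows of 1 Mb, prey strand at CTR RDCs was ordered along the window in aphidicolin. A plus-strand prey reads to the right of its junction and a minus-strand prey to the left. The mean position of plus-strand minus that of minus-strand junctions was -13.8 and 26.3 kb in DMSO and 141 and 150 kb in aphidicolin. In the first aphidicolin library 65 of 105 plus-strand junctions lay right of the centre and 88 of 139 minus-strand junctions left of it. In the second these were 60 of 105 and 80 of 117. In DMSO, with 47 and 74 junctions, plus-strand and minus-strand prey lay on both sides. Of 26 CTR windows with at least 3 aphidicolin junctions on each strand, 22 had the plus-strand median to the right of the minus-strand one and 4 to the left. By the same count TTR windows had this order at 26 of 39 in aphidicolin and at 5 of 7 in DMSO, and CTR windows in DMSO at 0 of 2. Chosen after their values were seen, *Ccser1* had medians of 299 kb for plus and -209 kb for minus, and *Agbl4* had -64.6 kb for plus and 321 kb for minus. The offset depended on the window. Its difference was 139 kb in 1 Mb, 28.0 kb in 0.5 Mb (exact permutation p = 0.667) and -47.2 kb in 2 Mb. The groups overlapped in windows of 0.5 Mb and of 2 Mb.

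**Figure D4:**
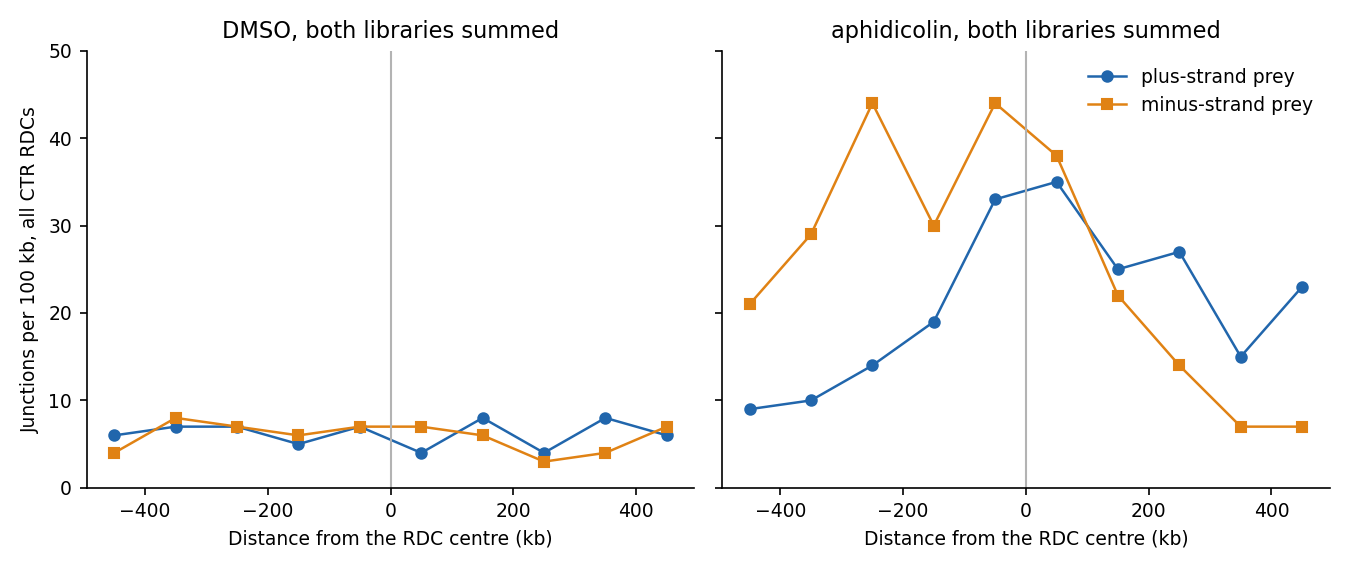
Junctions per 100 kb over the 39 CTR RDC windows against distance from the centre (kb), by prey strand, for both DMSO libraries (left) and both aphidicolin libraries (right) summed. In aphidicolin the minus-strand line is high left of the centre, with 44 junctions in its highest bins, and the plus-strand line extends farther to the right.

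The chr8 bait of the same collection gave a second comparison, with 3 DMSO and 3 aphidicolin libraries from another run, so that bait and run cannot be told apart. On RDCs of neither bait chromosome, CTR density was 0.644 higher in aphidicolin with chr12 and 0.963 higher with chr8. The test was of the chr12 effect minus the chr8 effect, -0.318 (exact permutation p = 0.14, 0.7 after Benjamini-Hochberg adjustment over 5 measures). TTR density was 0.278 higher with chr12 and 0.372 higher with chr8. These effects differed by -0.0939 (exact permutation p = 0.43, 0.717 after the same adjustment). The share on other chromosomes was 22.9 points higher with chr12 and 11.1 points higher with chr8. Bait-end loss was 6.03 bp larger with chr12 and 5.18 bp larger with chr8. Direct joints were 4.60 points higher with chr12 and 2.46 points higher with chr8. The DMSO levels of these last 3 measures were far apart. They were 16.8% and 6.81% on other chromosomes, 41.3 and 17.1 bp lost, and 23.8% and 13.9% direct. Exchanging libraries between baits mixes these levels into the permutations, so no p is given for them, and whether the effects differ cannot be told from this test.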

How the data were processed

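LAM-HTGTS junctions were analysed in 2 DMSO and 2 aphidicolin libraries of the chr12 bait and in 6 of the chr8 bait for comparison. The authors trimmed and demultiplexed reads, aligned them to mm10 with Bowtie2 in the HTGTS pipeline and deposited 1 table of filtered junctions per library, with read positions and no normalization or counts. Depth per library is the number of junctions, from 15012 to 37027 with chr12 and from 7347 to 12645 with chr8. Since reads carry no molecular identifiers, repeated reads may stem from 1 molecule.

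Scripts ran in Python 3.11.15 with pandas 2.3.3, and genes came from GENCODE M21. Micro-homology was the end of the bait minus the start of the prey in the read plus 1. Repeated junctions were kept. Libraries were grouped by labels and compared by two-sided exact permutation tests. Windows with at least 10 junctions were fitted with limma 3.58.1 (R 4.3.3) and voom weights, with Benjamini-Hochberg adjustment at 0.05. In simulated counts with 200 windows raised 4-fold, voom called 65 of them, limma-trend 116 and Fisher's exact test 142. A window that voom did not call can therefore still have changed. Named RDCs were the 10 largest non-overlapping differences, the 5 lowest, every window passing a test, copy number variant genes and those on chromosome 12; *Erbb4* was added as the partner of *Nrg3*. Members, lists and tests were chosen with earlier results of these data known. Alternatives were each junction counted once, other windows, totals, distance limits, filters and tests, each library left out, and replicate numbers as blocks. The 4 repeat-like bins were left out, and single counting in the window tests was tried, after seeing the data. Some values are not reported here.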

Additional observations from a re-analysis of the deposited data

How the results depend on the processing

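Apart from leaving out a library, 132 of 142 alternative values were labelled as unchanged. For differences this meant the same direction and, between baits, also the same side of the threshold. For counts of windows it meant a count equal or close to the main one. With the replicate number as a block, a difference of means cannot change, so those values were unchanged by construction. The label says nothing about stability where the permutation test cannot reach the threshold. Over all junctions, the share of joints with 5 to 10 bp of micro-homology was 3.57 points and mean micro-homology 0.201 bp higher in aphidicolin, on a total that adds the junctions near the break. With all junctions as the total, density outside RDCs was 0.0806 higher. The difference in direct joints at RDCs was -0.559 points with each junction counted once, -1.30 in windows of 0.5 Mb and -2.62 in windows of 2 Mb, and ranged from -2.46 to 4.23 with 1 library left out. The strand offset differed by -47.2 kb in windows of 2 Mb. The cause was not tested for these. Windows called numbered 0 with voom, 2 higher RDCs with limma-trend, 3 lower tiles with no minimum and 8 with Fisher's exact test, 6 higher and 2 lower. With each junction counted once, Fisher's test called 7 higher, among them *Csmd1*, and 2 lower. For the difference between the chr12 and chr8 baits, CTR density ranged from -0.430 (without the first chr8 DMSO library, unadjusted exact permutation p = 0.0167) to -0.239, and bait-end loss from -0.964 (without the second chr12 DMSO library) to 2.67 bp. Without the repeat-like bins, other chromosomes were 22.1 points and CTR density 0.688 higher in aphidicolin. With limits of 500 bp for the shortest deletions, the difference in their share was -8.48 points, and a total without junctions within 200 bp of the cut could give no value for them. No outlier can be tested in groups of 2.

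The labels do not say that libraries with the same replicate number belong together. Their deviations correlated at 0.019 over 725 windows. Many of these windows held few junctions, so counting error could hide a pairing and the correlation does not exclude one. With the replicate number as a block, the limma fit called 0 windows, and permutation within numbers can give no p below 0.5. The other-chromosome difference of 22.9 points is the same with the block by construction. The block changed no call. A median of 12 junctions per RDC window leaves wide counting error for single RDCs.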
